A study of Homo sapiens with 3 samples.

Results

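The genes described here are the expressed solute carriers of HCC827 cells, that is, the genes of the SLC superfamily of membrane transporters that reached 5 FPKM or more in at least 1 library. FPKM counts sequenced fragments per kilobase of transcript, scaled to the fragments mapped in a library, a level that is already per length. The unit is taken from the program named in the submitters' processing notes and from the values, since no column header names it. The deposited table holds 331 symbols with a name of the form SLC, family number, A, member number, and 148 of them reached that limit and are called members below. The measured levels chose them, so their level and their number are a description. HCC827, a long-established line of human non-small cell lung cancer, carried the ClonTracer library of DNA barcodes here and was a polyclonal pool. Vehicle-treated HCC827 cells received 0.1% DMSO for 4 days. Erlotinib-resistant HCC827 cells had been kept for 47 days in 2 µM erlotinib, which inhibits the kinase of the EGF receptor. Erlotinib/crizotinib dual resistant HCC827 cells came from that erlotinib-resistant population after 10 more days with both 2 µM erlotinib and 0.2 µM of the MET kinase inhibitor crizotinib. Each population gave 1 library, so no value has an error, no difference has a test, and drug, time in culture and resistance cannot be told apart.

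Solute carriers move sugars, amino acids, ions, metals, vitamins and metabolites across cell and organelle membranes, either down a gradient or coupled to the movement of sodium, protons or another solute. Members of the SLC25 family sit almost all in the inner mitochondrial membrane, and members of the SLC35 family bring nucleotide sugars into the Golgi apparatus and the endoplasmic reticulum. Growing tumour cells are known for high demand on carriers of glucose, lactate, glutamine and large neutral amino acids, and cells that line the alveoli of the lung are known for the phosphate carrier SLC34A2.

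The RNA of the solute carriers was concentrated in few genes. Summed over the 147 members with a value in every library, the level was 5663 FPKM in vehicle, 5698 in erlotinib-resistant and 4562 in dual-resistant cells, or 0.95%, 1.08% and 0.922% of the library's FPKM. The median member stood at 13.1, 14.1 and 12.3 FPKM. The 10 members with the highest mean level held 57.9%, 60.1% and 50.3% of the members' sum. They were the mitochondrial carriers SLC25A5, SLC25A6, SLC25A3 and SLC25A39, the amino acid carriers SLC7A5, SLC3A2, SLC1A5 and SLC38A2, the lactate carrier SLC16A3 and the zinc carrier SLC39A1, and these same 10 reached 100 FPKM or more in some library.

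Of the members, 105 stood at 5 FPKM or more in all 3 libraries, 19 in 2 and 24 in 1. Among the 24, the limit was reached in the dual-resistant library alone by 15, in the vehicle library alone by 5 and in the erlotinib-resistant library alone by 4, and such a member is high in its library by the way it was chosen. The members just inside the limit were SLC16A7, SLC16A5 and SLC22A31, with highest values of 5.004, 5.07 and 5.09 FPKM. Just outside lay SLC45A4, SLC43A1 and SLC27A1, with highest values of 4.93, 4.90 and 4.79 FPKM. Of the 183 other symbols, 41 reached 1 FPKM and 40 were listed at 0 in every library. No member was listed at 0. SLC16A4 has no value in the vehicle library and was left out of both comparisons with it.

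**Figure D1:**
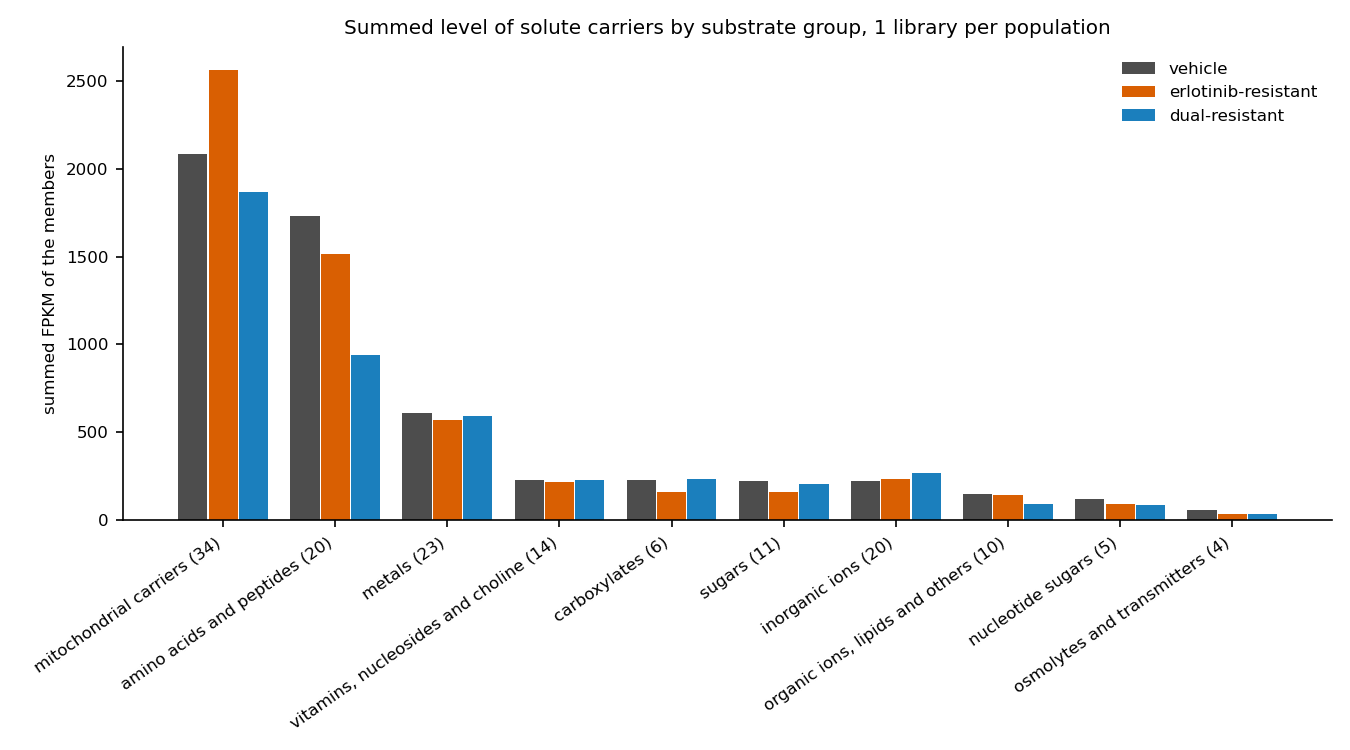
Summed FPKM (vertical axis, from 0) of the members of each substrate group in the vehicle, erlotinib-resistant and dual-resistant libraries, 1 bar per library, with the number of members summed in brackets. The mitochondrial bars stand at 2086, 2564 and 1870 FPKM, and the amino acid bars at 1733, 1514 and 941 FPKM.

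A member is called higher or lower where log2(FPKM + 1) differed by 1 or more between 2 libraries, a 2-fold limit on that scale, which understates the differences of low genes. Every fold given below is likewise a ratio of FPKM + 1. It is smaller than the ratio of the printed FPKM values, and much smaller where a value is near or below 1 FPKM. In the erlotinib-resistant library against vehicle, 5 of 147 members were higher and 8 lower, or 3.40% and 5.44%. Of all genes that reached the same 5 FPKM, 4.1% were higher and 5.51% lower, and of all genes at 1 FPKM or more 3.81% and 6.03%. The members' median log2 difference was -0.01, beside 0.01 for all genes at 5 FPKM. The higher members were SLC39A10, SLC4A7, SLC16A7, SLC25A40 and SLC9A7, and the lower ones SLC2A3, SLC34A2, SLC43A3, SLC16A3, SLC29A4, SLC6A8, SLC35A2 and SLC16A13.

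In dual-resistant relative to erlotinib-resistant cells, 22 of 148 members were higher and 13 lower, or 14.9% and 8.78%. Of all genes at 5 FPKM or more 8.94% were higher and 7.68% lower, and of all genes at 1 FPKM or more 10.1% and 7.22%. The members' median was -0.04, as was that of all genes at 5 FPKM. Most of the higher members were below 5 FPKM in some library: among the 105 members at 5 FPKM or more in all 3 libraries, 5 were higher and 10 lower, beside 4.78% and 4.86% of all genes at that level in all 3 libraries. With members chosen by a mean of 5 FPKM over the libraries, 12 of 129 were higher and 12 lower. The share of all genes chosen by such a mean was not computed, so this count has none beside it.

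In the dual-resistant library against vehicle, 21 of 147 members were higher and 16 lower, or 14.3% and 10.9%, beside 10.6% and 10.4% of all genes at 5 FPKM and 11% and 10.4% of all genes at 1 FPKM. Among the 105 members at 5 FPKM in all 3 libraries, 5 were higher and 11 lower, beside 6.2% and 6.72% of genes at that level. In the erlotinib-resistant library against vehicle these 105 had 1 higher and 4 lower, beside 2.6% and 2.94%. The 3 comparisons share libraries, so their values are given side by side and not as support for each other. Scaled to equal FPKM sums, higher and lower members numbered 7 and 5, 22 and 8, and 28 and 12 in the 3 comparisons, so the share of calls that were higher went from 38.5%, 62.9% and 56.8% to 58.3%, 73.3% and 70.0%. Among the calls of all genes at 1 FPKM or more, 53.7%, 64.4% and 66.0% were higher at equal sums. As deposited, the highest of the 3 values stood in the vehicle library for 48 members, in erlotinib-resistant cells for 44 and in dual-resistant cells for 55, or 32.7%, 29.9% and 37.4%, beside 34.6%, 30.5% and 34.9% of all genes at 5 FPKM. At equal sums these were 33, 48 and 66 members, beside 22.1%, 32.9% and 45.0% of all genes at 5 FPKM.

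**Figure D2:**
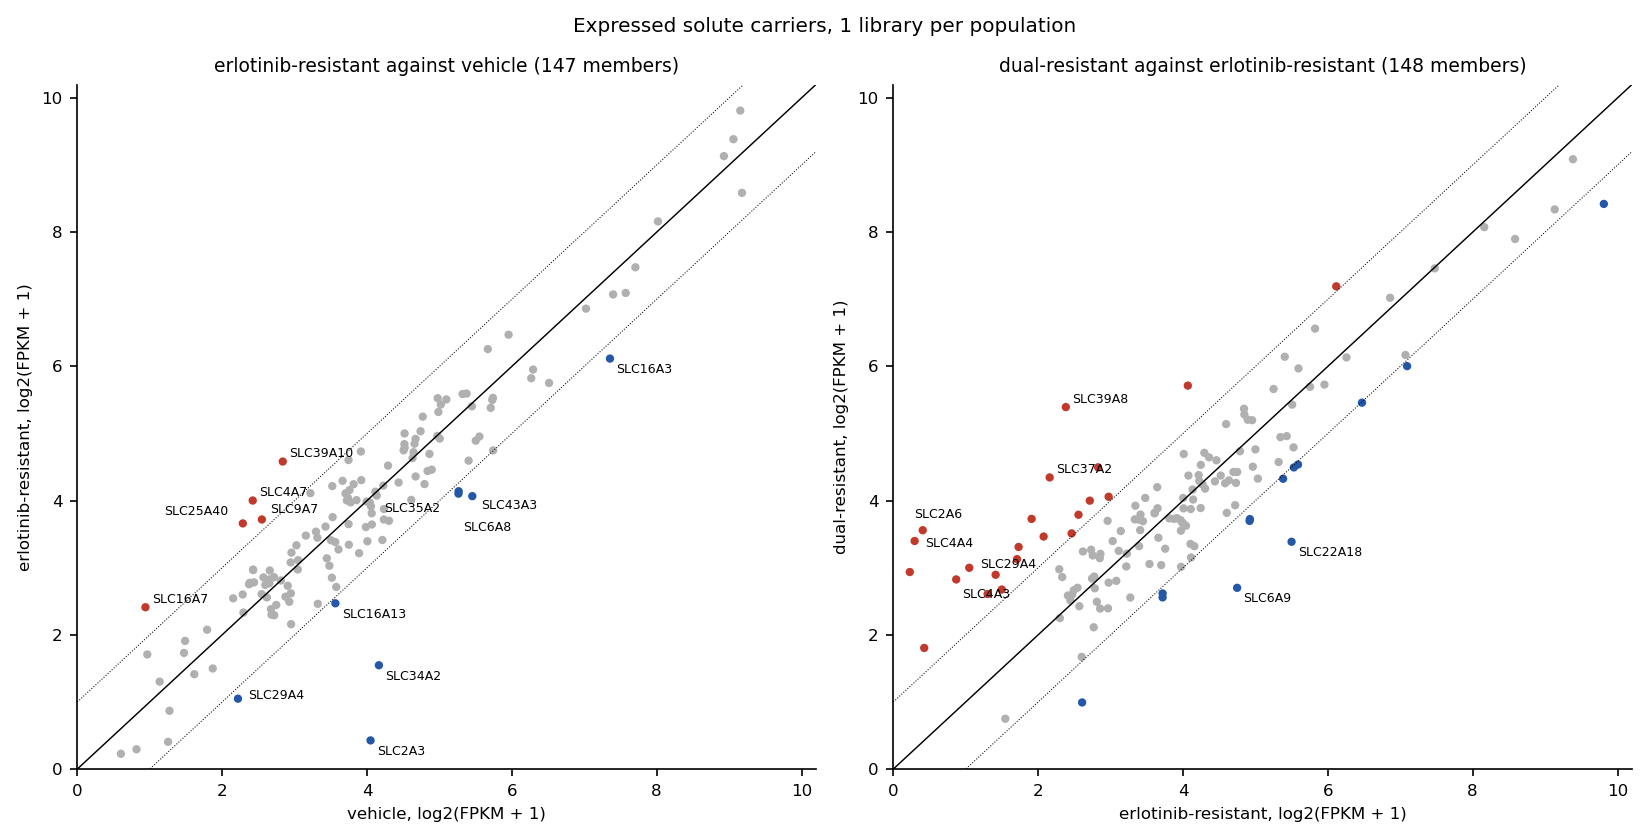
Level of each member, as log2(FPKM + 1), in the erlotinib-resistant against the vehicle library (left, 147 members) and in dual-resistant against erlotinib-resistant cells (right, 148 members), with red points for higher members, blue for lower, the line of equality and dotted lines at a log2 difference of 1. On the left 5 points are red and 8 blue and all are named, and on the right 22 are red and 13 blue, with names for most log2 differences of 1.9 or more.

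Across the libraries as a whole, FPKM summed to 596084, 528920 and 494817. Scaling every library to the same sum moved the median of all genes by 0.14 in erlotinib-resistant and by 0.23 in dual-resistant cells, both against vehicle. Read counts were not used here. By the lowest values of single-exon genes, 5 FPKM in a transcript of 2 kb stood on about 672, 469 and 431 fragments, so counting error is small beside a 2-fold difference at that level. The 8 epithelial markers, among them EPCAM, KRT8 and NKX2-1, summed to 4173, 3703 and 1892 FPKM, none at 0. Between vehicle and erlotinib-resistant cells they were mixed. EPCAM (306 and 345 FPKM), KRT19 and CDH1 were higher there, and the others lower, KRT8 at 905 and 573. The 4 mesenchymal markers, led by VIM and FN1, summed to 108, 51.5 and 607 FPKM, none at 0. FN1 went from 101 to 27.9 FPKM between vehicle and erlotinib-resistant cells while VIM, ZEB1 and CDH2 were higher there, VIM at 7.04 and 23.3. The 3 leukocyte markers summed to 4.10, 0.734 and 0.625 FPKM with CD3E at 0, the 3 endothelial markers to 0.636, 0.163 and 0.111 FPKM, and the 4 fibroblast markers to 3.90, 2.55 and 6.92 FPKM. Each epithelial marker was lowest and each mesenchymal marker highest in the dual-resistant library, by unlike amounts. From erlotinib-resistant to dual-resistant cells KRT8 went from 573 to 542 FPKM and EPCAM from 345 to 41.1. This marker shift thus comes together with the differences of the dual-resistant library given below, and its part in them was not tested. In such bulk RNA, fewer cells with a transcript and less of it per cell cannot be told apart.

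Among the sugar carriers, SLC2A3, SLC2A6, SLC2A8, SLC37A1, SLC37A2 and SLC50A1 passed the limit in some comparison, and the main glucose carrier SLC2A1 in none. SLC2A3 and SLC2A6 each reached 5 FPKM in 1 library alone, so they are high there by the way they were chosen. SLC2A1, the widespread glucose carrier GLUT1 (Entrez ID 6513, at 43391046 to 43424847 of chromosome 1 in GRCh37, the build of all gene positions below), measured 76.1 FPKM in vehicle, 55.6 in erlotinib-resistant and 93.5 in dual-resistant cells. No comparison of SLC2A1 passed the limit, with log2 differences of -0.44, 0.74 and 0.29 for erlotinib-resistant against vehicle, dual-resistant against erlotinib-resistant and dual-resistant against vehicle, the order used for every set of 3 differences below. SLC2A3, the high-affinity glucose carrier GLUT3 (Entrez ID 6515, at 8071824 to 8088892 of chromosome 12), stood at 15.6, 0.344 and 2.49 FPKM. It was high in vehicle only. In FPKM + 1, erlotinib-resistant cells were 12.3-fold and dual-resistant cells 4.74-fold below vehicle, and dual-resistant cells were 2.60-fold above erlotinib-resistant cells. Its close copy SLC2A14, between which and SLC2A3 reads can be split, stood at 0.280 FPKM or less.

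SLC2A6, a hexose carrier of lysosomes (Entrez ID 11182, at 136336216 to 136344276 of chromosome 9), stood at 1.38, 0.326 and 10.8 FPKM. In FPKM + 1 it was 8.89-fold higher in the dual-resistant than in the erlotinib-resistant library. SLC2A8, an intracellular hexose carrier, stood at 10.9, 5.56 and 15.0 FPKM, and the dual-resistant library was 2.44-fold above the erlotinib-resistant one. The remaining hexose carrier, SLC2A11, stood between 5.57 and 8.23 FPKM. Over the 14 SLC2 genes with a value in the table, members or not, SLC2A1 held 62.9%, 77.2% and 68.3% of the summed level, SLC2A3 held 12.9%, 0.478% and 1.82%, and SLC2A6 held 1.14%, 0.452% and 7.88%.

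The SLC37 family was grouped here as sugar-phosphate exchangers, an activity not established for each of them, and 2 of its 4 members went opposite ways. SLC37A2 stood at 6.74, 3.47 and 19.3 FPKM and was 4.55-fold higher in the dual-resistant than in the erlotinib-resistant library. SLC37A1 stood at 17.8, 12.2 and 4.89 FPKM and was 2.24-fold lower in that comparison. SLC37A4, the carrier that feeds glucose phosphatase, stood at 17.8, 13.7 and 12.3 FPKM and SLC37A3 at 15.6, 14.1 and 12.3, and neither passed the limit. SLC37A1 held 30.7%, 28.0% and 10.01% of the family's level and SLC37A2 11.6%, 7.99% and 39.6%.

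SLC50A1, a sugar exporter, stood at 52.4, 45.2 and 21.5 FPKM, with the dual-resistant library lowest. It was 2.05-fold below the erlotinib-resistant library, at the edge of the limit, and within it (log2 -0.94) when the libraries were scaled to the same sum. SLC45A3 stood at 3.45, 4.83 and 5.51 FPKM and lies wholly within the span of ELK4, from which its reads may not be separable. In all, 1 of 11 sugar carriers was lower and none higher in the erlotinib-resistant library against vehicle (median -0.44). In the dual-resistant library 4 were higher and 2 lower than in the erlotinib-resistant library (median 0.35), and 2 higher and 3 lower than in vehicle (median 0.29). At equal sums the 3 medians were -0.27, 0.43 and 0.56. Of all genes at 5 FPKM or more, 4.1% were higher and 5.51% lower in the first comparison. The shares were 8.94% and 7.68% in the second, and 10.6% and 10.4% in the last. They are to be set beside every group count below, and no group was tested.

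The amino acid carriers with the highest levels were at their lowest in the dual-resistant library. SLC3A2, the heavy chain CD98 that brings several light chains to the surface (Entrez ID 6520, at 62623484 to 62656355 of chromosome 11), stood at 578, 383 and 238 FPKM and was 2.43-fold lower in dual-resistant cells than in vehicle. SLC7A5, its light chain LAT1, which carries leucine and other large neutral amino acids (Entrez ID 8140, at 87863629 to 87903100 of chromosome 16), stood at 486, 560 and 323 FPKM, with no comparison past the limit. SLC1A5, a carrier of glutamine and other neutral amino acids (Entrez ID 6510, at 47278140 to 47291842 of chromosome 19), stood at 189, 136 and 63.2 FPKM. It was lowest in the dual-resistant library, 2.13-fold below the erlotinib-resistant library and 2.97-fold below vehicle, and the former came just within the limit with libraries scaled to the same sum.

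SLC38A2, a sodium-coupled carrier of alanine and glutamine, stood at 168, 134 and 71.0 FPKM and was 2.34-fold lower in dual-resistant cells than in vehicle, but within the limit (log2 -0.96) at equal sums. Its relative SLC38A1 stood at 61.0, 87.8 and 43.0 FPKM and was 2.02-fold lower in the dual-resistant than in the erlotinib-resistant library, and also within the limit (log2 -0.92) at equal sums. SLC6A9, the glycine carrier GlyT1 (Entrez ID 6536, at 44457172 to 44497134 of chromosome 1), stood at 52.5, 25.9 and 5.50 FPKM. SLC6A9 thus had the largest difference of the group, 4.13-fold lower in the dual-resistant than in the erlotinib-resistant library and 8.23-fold lower than in vehicle, with a log2 difference of -0.99 between erlotinib-resistant and vehicle. SLC6A9 overlaps CCDC24, which was listed at 0 in both those libraries and at 3.82 FPKM in the dual-resistant one.

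Other members of the group were higher in the dual-resistant library, all of them at low levels. SLC7A2, a carrier of arginine and lysine, stood at 0.954, 2.27 and 7.74 FPKM and was 4.47-fold higher than in vehicle. SLC1A1, a glutamate and aspartate carrier, stood at 2.46, 3.22 and 10.04 FPKM, 3.19-fold higher. SLC36A4, a proton-linked family member that carries proline and tryptophan, stood at 5.14, 4.89 and 12.8 FPKM, 2.25-fold higher. These 3 exceeded the limit against both other libraries, and SLC7A2 and SLC1A1 were under 5 FPKM outside dual-resistant cells.

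Of the other light chains, SLC7A11, the exchanger that imports cystine for glutathione (Entrez ID 23657, at 139085248 to 139163503 of chromosome 4), stood at 8.31, 16.3 and 7.89 FPKM. The erlotinib-resistant library was the highest, with log2 differences of 0.89 from vehicle and -0.96 to the dual-resistant library, just inside the limit, and the first of these passed it at equal sums (1.05). SLC7A6 and SLC7A7, which exchange arginine for neutral amino acids, stood at 12.0, 16.2 and 13.7 FPKM and at 17.5, 9.65 and 12.9 FPKM. SLC7A5 made up 92.8%, 93.0% and 90.3% of the summed level of the 6 light chain genes measured, of which SLC7A8 stood at 0.0995 FPKM or less and SLC7A10 was listed at 0. The light chain sum was 524, 603 and 357 FPKM.

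The remaining amino acid and peptide carriers stayed within the limit in every comparison. SLC7A1, the main arginine carrier of proliferating cells, stood at 31.4, 42.2 and 30.1 FPKM, and SLC1A4, a serine and alanine carrier, at 13.8, 8.30 and 7.11. SLC38A9, the arginine sensor of the lysosome, stood at 15.1, 9.51 and 8.99 FPKM, and SLC38A10 at 41.3, 23.2 and 34.3. SLC43A2 was the most even, between 16.3 and 16.9 FPKM, and SLC15A4, SLC38A6 and SLC38A7 lay between 5.64 and 15.4 FPKM. As counts, none of 20 members passed the limit in the erlotinib-resistant library against vehicle. In the dual-resistant library 3 were higher and 3 lower than in the erlotinib-resistant library (median -0.22), and 3 higher and 4 lower than in vehicle (median -0.29). At equal sums these medians were -0.13 and -0.04. The group's sum, 1733, 1514 and 941 FPKM, was 30.6%, 26.6% and 20.6% of the sum over members.

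**Figure D3:**
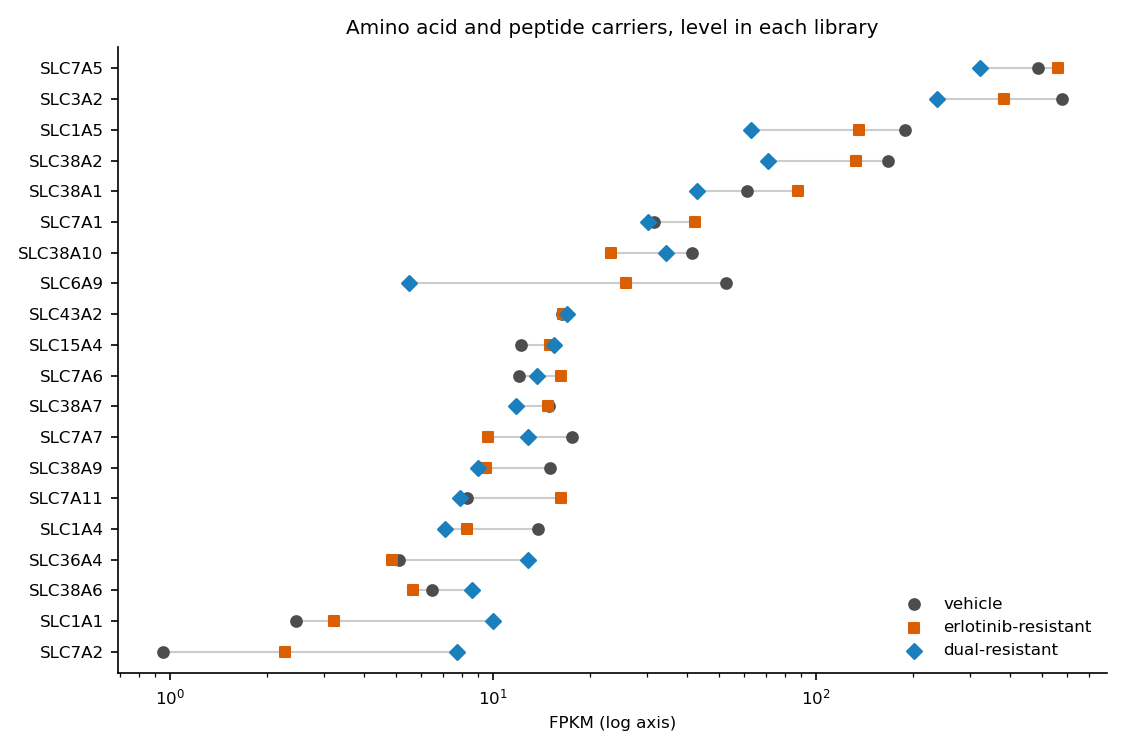
Level in FPKM (horizontal, log axis) of the 20 amino acid and peptide carriers in the vehicle (circle), erlotinib-resistant (square) and dual-resistant (diamond) libraries, ordered by mean level, with a grey line from the lowest to the highest value. The diamond is leftmost for the 5 members of highest mean level, SLC7A5, SLC3A2, SLC1A5, SLC38A2 and SLC38A1, and rightmost for SLC7A2, SLC1A1 and SLC36A4.

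Genes of amino acid uptake and synthesis are known to be induced by ATF4 through a composite site with the core TGATGNAA, so windows at start sites of these members that hold that core are shown. RefSeq promoter windows, from 250 bases before to 50 after a start site on GRCh38.p14, matched 121 of 148 members by Entrez ID and 18 of the 20 amino acid carriers, and a gene can have several windows. The letters TGATGNAA on either strand lay in a window of 5 of the 18 amino acid carriers, or 27.8% of them, beside 7.44% of the 121 members matched and 4.46% of all 27305 genes with a window. Counted by window, the shares were 15.6% of 32, 4.71% of 191 and 3.62% of 35116. The 5 windows follow, written from the gene's own strand with the match in capitals. Each is the window that held the match, and it need not lie at the first or main start site of its gene. Capitals that do not read as the core hold it on the opposite strand, and N is any base.
SLC1A5, chr19:46784765-46785064, minus strand: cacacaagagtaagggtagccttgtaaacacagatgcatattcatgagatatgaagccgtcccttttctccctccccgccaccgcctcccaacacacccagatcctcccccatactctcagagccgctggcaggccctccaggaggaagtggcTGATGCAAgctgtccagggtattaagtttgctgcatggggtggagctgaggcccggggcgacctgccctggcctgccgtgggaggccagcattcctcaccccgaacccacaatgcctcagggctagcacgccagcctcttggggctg
SLC3A2, chr11:62881449-62881748, plus strand: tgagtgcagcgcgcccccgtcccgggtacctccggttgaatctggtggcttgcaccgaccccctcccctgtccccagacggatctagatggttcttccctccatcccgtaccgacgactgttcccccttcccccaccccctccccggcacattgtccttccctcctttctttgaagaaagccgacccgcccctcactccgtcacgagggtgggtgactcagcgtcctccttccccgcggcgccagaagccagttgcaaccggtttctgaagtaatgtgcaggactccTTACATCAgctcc
SLC38A1, chr12:46266467-46266766, minus strand: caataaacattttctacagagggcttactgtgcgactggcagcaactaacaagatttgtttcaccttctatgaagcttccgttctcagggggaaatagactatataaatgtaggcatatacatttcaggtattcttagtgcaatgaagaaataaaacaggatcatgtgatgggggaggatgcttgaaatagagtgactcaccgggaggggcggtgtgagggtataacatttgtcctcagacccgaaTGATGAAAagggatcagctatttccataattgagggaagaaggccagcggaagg
SLC1A4, chr2:64989149-64989448, plus strand: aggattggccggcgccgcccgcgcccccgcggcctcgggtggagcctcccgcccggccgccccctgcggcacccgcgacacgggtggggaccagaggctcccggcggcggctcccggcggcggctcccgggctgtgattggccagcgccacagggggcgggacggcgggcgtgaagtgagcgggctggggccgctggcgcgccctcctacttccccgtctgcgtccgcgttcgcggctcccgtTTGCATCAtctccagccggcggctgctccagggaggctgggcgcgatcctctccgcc
SLC7A1, chr13:29595639-29595938, minus strand: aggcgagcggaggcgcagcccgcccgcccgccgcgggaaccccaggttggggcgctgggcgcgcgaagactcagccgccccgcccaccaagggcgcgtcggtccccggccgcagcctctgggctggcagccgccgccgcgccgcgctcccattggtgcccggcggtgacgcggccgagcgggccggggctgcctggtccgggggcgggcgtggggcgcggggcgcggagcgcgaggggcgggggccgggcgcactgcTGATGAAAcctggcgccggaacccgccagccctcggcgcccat
SLC1A5, SLC3A2 and SLC38A1 were lower past the limit in a comparison of the dual-resistant library, and SLC1A4 and SLC7A1 passed it in none. SLC38A1 came within the limit at equal sums. Of the carriers not listed here, SLC38A2 and SLC6A9 were also lower past the limit in such a comparison, and SLC7A2, SLC1A1 and SLC36A4 higher. Whether a match goes with a difference was not tested. A match is a description of these letters, not a site in use.

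Of the main lactate carriers, SLC16A3 was lower in the erlotinib-resistant library and SLC16A1 did not pass the limit. SLC16A3, the carrier MCT4 that exports lactate from glycolytic cells (Entrez ID 9123, at 80186282 to 80197375 of chromosome 17), stood at 163, 68.4 and 145 FPKM. It was low in the erlotinib-resistant library alone, 2.36-fold below vehicle and 2.11-fold below the dual-resistant library. SLC16A1, the lactate and pyruvate carrier MCT1, stood at 49.9, 75.5 and 69.2 FPKM and passed the limit in no comparison. Of the summed level of this pair, SLC16A3 thus held 76.5% in vehicle, 47.5% in erlotinib-resistant and 67.7% in dual-resistant cells. BSG, the chaperone both need to reach the surface, stood at 373, 245 and 339 FPKM.

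The other SLC16 members were lower in level. SLC16A7, the pyruvate carrier MCT2, stood at 0.920, 4.32 and 5.004 FPKM, 2.77-fold higher in the erlotinib-resistant library and 3.13-fold higher in the dual-resistant library than in vehicle. SLC16A13 stood at 10.8, 4.54 and 5.06 FPKM, 2.13-fold lower in the erlotinib-resistant library than in vehicle but within the limit (log2 -0.94) at equal sums. SLC16A4 stood at 39.7 FPKM in the erlotinib-resistant and 29.8 in the dual-resistant library, and SLC16A5 at 3.87, 5.07 and 2.19. Of the carboxylate carriers, 1 of 6 was higher and 2 lower in erlotinib-resistant cells against vehicle, 2 of 7 were higher and none lower in dual-resistant against erlotinib-resistant cells, and 2 of 6 higher and none lower in dual-resistant cells against vehicle.

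Among carriers of inorganic ions, SLC4A3, SLC4A4, SLC26A2, SLC26A6 and SLC26A11 were higher in dual-resistant than in erlotinib-resistant cells, and the phosphate carrier of alveolar cells was lower in both resistant libraries than in vehicle. Of these 5, all but SLC26A11 reached 5 FPKM in dual-resistant cells alone, so being highest there came with how they were chosen. SLC34A2 (Entrez ID 10568, at 25657435 to 25680368 of chromosome 4) stood at 16.9, 1.92 and 0.682 FPKM. Only the vehicle library was above 5 FPKM, so SLC34A2 is high there by the way it was chosen. The dual-resistant library was 10.7-fold lower in FPKM + 1. The widespread phosphate carriers SLC20A1 and SLC20A2 stood at 25.7, 31.8 and 19.1 FPKM and at 14.1, 25.6 and 18.2 FPKM and passed the limit in no comparison.

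SLC4A4, a sodium bicarbonate cotransporter (Entrez ID 8671, at 72053003 to 72437804 of chromosome 4), stood at 0.762, 0.227 and 9.55 FPKM. The dual-resistant library was thus alone above 1 FPKM and, in FPKM + 1, 8.60-fold above the erlotinib-resistant library. SLC4A3, a chloride bicarbonate exchanger, stood at 1.42, 0.826 and 6.09 FPKM and was 3.88-fold higher in that comparison. SLC4A7, another sodium bicarbonate cotransporter, stood at 4.36, 15.02 and 11.6 FPKM. Both resistant libraries were above vehicle for SLC4A7, by 2.99-fold and 2.36-fold. SLC4A2, the most abundant of the 4, stood at 42.7, 41.4 and 69.7 FPKM, with log2 differences of 0.74 and 0.70 in the dual-resistant library. The family's sum was 49.2, 57.4 and 97.0 FPKM, of which SLC4A2 held 86.7%, 72.0% and 71.9%.

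The 3 SLC26 members exchange sulfate, chloride and other anions. SLC26A2, the sulfate carrier needed for cartilage matrix, stood at 2.06, 1.66 and 6.44 FPKM, SLC26A6 at 1.20, 1.47 and 5.10, and SLC26A11 at 8.99, 4.51 and 10.4. They were 2.79-fold, 2.47-fold and 2.07-fold above the erlotinib-resistant library. SLC26A6 shares its span with CELSR3, which stood at 4.27 to 5.79 FPKM.

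Of the sodium-proton exchangers, SLC9A7, which works in the Golgi apparatus, stood at 4.85, 12.2 and 5.13 FPKM. It was high in the erlotinib-resistant library alone, by 2.25-fold against vehicle and 2.15-fold against the dual-resistant library. SLC9A8, another exchanger of the family, stood at 5.42, 3.93 and 3.75 FPKM and passed the limit in no comparison. The chloride cotransporters SLC12A2, SLC12A4, SLC12A7, SLC12A8 and SLC12A9 lay between 4.21 and 31.01 FPKM and SLC24A6 (now SLC8B1), the mitochondrial sodium calcium exchanger, between 9.43 and 12.2, with no member past the limit. Of the 20 ion carriers, 2 were higher and 1 lower in the erlotinib-resistant library against vehicle. In the dual-resistant library 5 were higher and 1 lower than in the erlotinib-resistant library (median 0.16), and 5 higher and 1 lower than in vehicle (median 0.22). At equal sums these medians were 0.25 and 0.47.

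Among metal carriers, 4 of the 11 zinc importers (SLC39) passed the limit in some comparison, namely SLC39A8, SLC39A10, SLC39A11 and SLC39A13, and none of the 5 zinc exporters (SLC30) did. The share of all genes past the limit in some comparison was not computed, so these counts have no such share beside them. The families were not tested against each other. SLC39A8, which imports zinc and manganese (Entrez ID 64116, at 103172198 to 103266655 of chromosome 4), stood at 5.38, 4.21 and 41.0 FPKM. The dual-resistant library was alone in this, 8.06-fold above the erlotinib-resistant library and 6.59-fold above vehicle. SLC39A10, a zinc importer of the cell surface (Entrez ID 57181, at 196521532 to 196602426 of chromosome 2), stood at 6.15, 23.0 and 18.1 FPKM, 3.35-fold and 2.68-fold above vehicle in erlotinib-resistant and dual-resistant cells. SLC39A13 stood at 7.25, 6.86 and 15.7 FPKM, 2.12-fold higher in the dual-resistant than in the erlotinib-resistant library.

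SLC39A11 went the other way, at 51.3, 40.7 and 19.1 FPKM, 2.61-fold lower in dual-resistant cells than in vehicle. Against erlotinib-resistant cells it was lower as deposited and within the limit (log2 -0.97) at equal sums. SLC39A1, the most abundant importer, stood at 129, 115 and 129 FPKM. SLC39A7, which releases zinc from the endoplasmic reticulum, stood at 90.4, 53.0 and 50.8 FPKM, SLC39A14 at 21.9, 27.7 and 40.3 and SLC39A6 at 24.2, 27.8 and 37.9, none of them past the limit as deposited. At equal sums SLC39A14 passed it against vehicle (1.11). SLC39A3, SLC39A4 and SLC39A9 lay between 13.1 and 45.9 FPKM. The sum over the 11 importers was 422, 367 and 420.0 FPKM, nearly the same in vehicle and dual-resistant, while the share of SLC39A8 in it went from 1.27% and 1.15% to 9.77%. The 5 exporters SLC30A1, SLC30A5, SLC30A6, SLC30A7 and SLC30A9 summed to 99.3, 108 and 96.0 FPKM.

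SLC11A2, the importer of iron and other divalent metals DMT1, stood at 31.1, 29.4 and 12.2 FPKM and was 2.30-fold lower in the dual-resistant than in the erlotinib-resistant library. TFRC, the transferrin receptor that supplies iron to the endosomes where SLC11A2 works, stood at 47.3, 83.7 and 86.8 FPKM. SLC41A1, a magnesium carrier, stood at 5.31, 6.78 and 12.0 FPKM, 2.06-fold above vehicle in the dual-resistant library, and SLC41A2 and SLC41A3 lay between 4.18 and 18.8, of which SLC41A2 passed it at equal sums (1.04). The copper carriers SLC31A1 and SLC31A2 stood at 23.7, 23.8 and 18.7 FPKM and at 3.91, 4.04 and 6.27, and SLC48A1, a heme carrier, at 4.63 to 6.02. Of 23 metal carriers, 1 was higher and none lower in the erlotinib-resistant library against vehicle, 2 were higher and 2 lower in dual-resistant against erlotinib-resistant cells, and 4 higher and 2 lower in the dual-resistant library against vehicle.

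**Figure D4:**
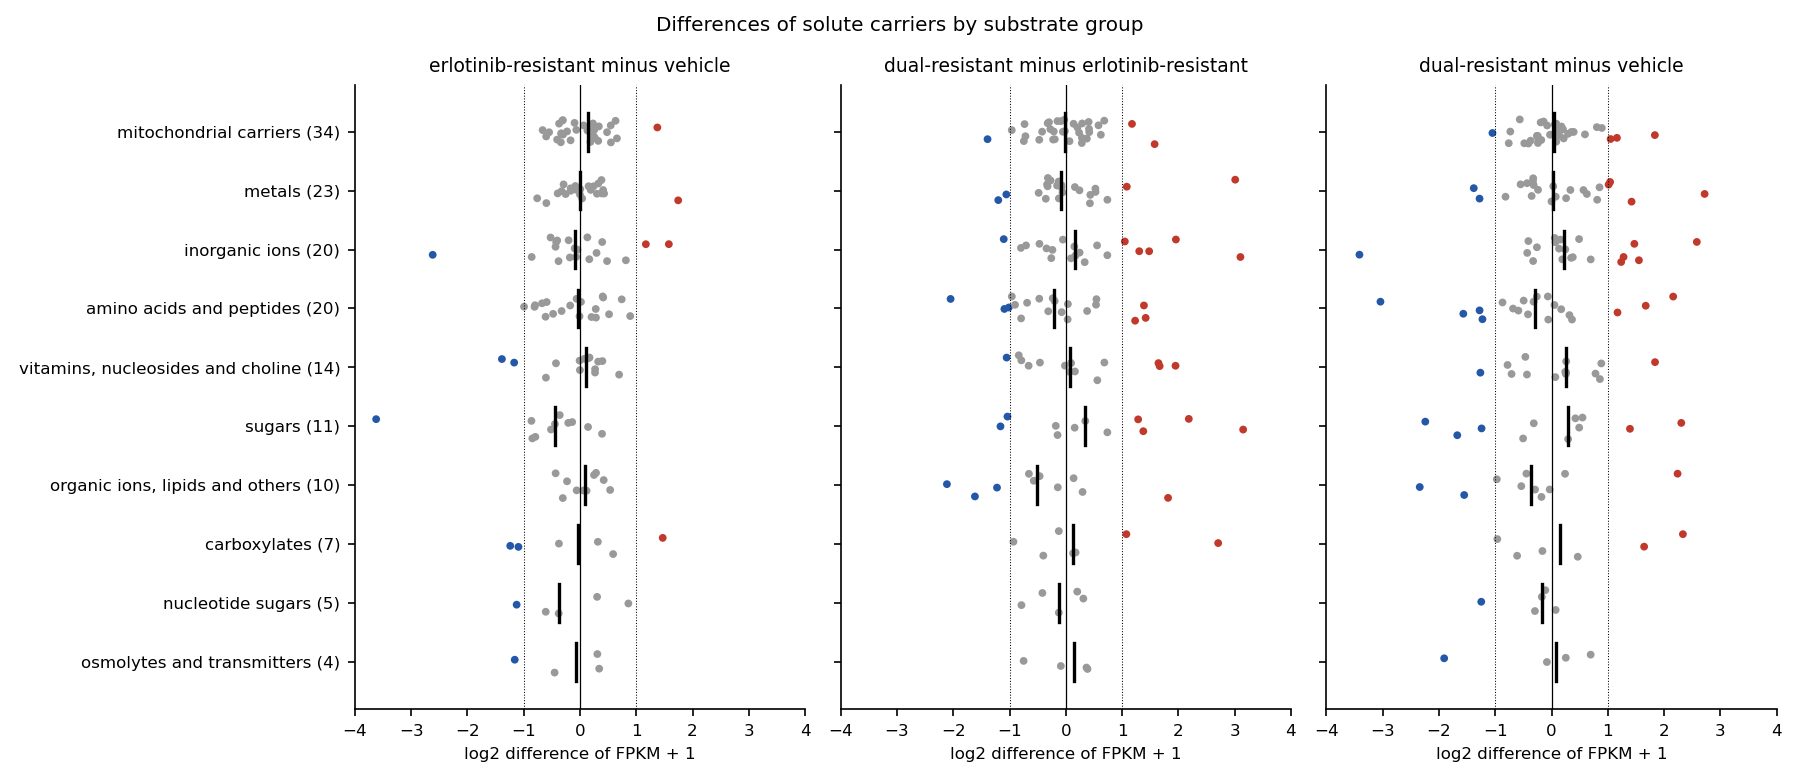
Difference in log2(FPKM + 1) of each member (points, red higher, blue lower, grey within the limit) by substrate group in the 3 comparisons, with a bar at the group's median and the number of members in brackets. Of the 34 mitochondrial carriers, 33, 31 and 30 points are grey, and those of the 11 sugar carriers run from -3.62 (left) to 3.15 (middle).

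The mitochondrial carriers were the largest group, and most of them stayed within the limit. Of the 34, 1 was higher and none lower in the erlotinib-resistant library against vehicle (median 0.14), 2 were higher and 1 lower in dual-resistant against erlotinib-resistant cells, and 3 higher and 1 lower in the dual-resistant library against vehicle (median 0.04). Their sum of 2086, 2564 and 1870 FPKM was led by the carriers that exchange ADP for ATP. SLC25A5 (Entrez ID 292, at 118602363 to 118605359 of chromosome X), the isoform of proliferating cells, stood at 569, 897 and 342 FPKM, the highest level of any member. The erlotinib-resistant library was the highest and the dual-resistant library 2.62-fold below it.

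SLC25A6, the second abundant isoform, was more even, at 533, 667 and 543 FPKM, and SLC25A4, the isoform of muscle, was at 6.72, 5.14 and 8.46. Of the summed ADP/ATP carriers, SLC25A5 held 51.3%, 57.2% and 38.3% and SLC25A6 48.1%, 42.5% and 60.8%, so that SLC25A6 was the larger part in the dual-resistant library alone. These genes have close copies, among which reads can be split. SLC25A3, the phosphate carrier that feeds ATP synthase, stood at 258, 285 and 269 FPKM, and SLC25A39, which brings glutathione into mitochondria, at 208, 177 and 175.

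SLC25A40, the relative of SLC25A39 (Entrez ID 55972, at 87463814 to 87505692 of chromosome 7), stood at 3.88, 11.6 and 9.91 FPKM, 2.59-fold and 2.24-fold above vehicle in erlotinib-resistant and dual-resistant cells. SLC25A13, an aspartate and glutamate carrier of the malate shuttle (chromosome 7, 95749532 to 95951459), stood at 11.7, 18.6 and 25.2 FPKM, 2.07-fold above vehicle in the dual-resistant library. The other members of chromosome 7 were SLC12A9, SLC4A2, SLC37A3 and SLC29A4. SLC12A9 and SLC37A3 passed the limit in no comparison, and neither did SLC4A2.

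SLC25A30 stood at 1.78, 2.32 and 8.91 FPKM, 3.57-fold above vehicle in the dual-resistant library, and SLC25A20, which imports fatty acids as carnitine esters, at 2.66, 1.83 and 5.39, 2.26-fold above the erlotinib-resistant library. Both are members through the dual-resistant library alone. SLC25A33, a pyrimidine nucleotide carrier, stood at 11.2, 8.66 and 4.88 FPKM, 2.07-fold below vehicle in the dual-resistant library but within the limit (log2 -0.82) at equal sums. SLC25A24, an ATP and phosphate carrier, stood at 26.3, 37.1 and 49.7 FPKM, and SLC25A1, which exports citrate for lipid synthesis, at 40.5, 47.3 and 61.7, both highest in the dual-resistant library and within the limit as deposited. At equal sums SLC25A24 passed it against vehicle (1.15). SLC25A25 stood at 12.7, 14.7 and 7.08 FPKM, SLC25A37, an iron carrier, at 30.5, 45.1 and 26.7, and SLC25A11, the oxoglutarate carrier, at 77.4, 61.0 and 52.0. The others lay between 4.38 and 39.0 FPKM and passed the limit in no comparison. SLC25A10 overlaps MRPL12 and SLC25A35 overlaps RANGRF, whose levels were higher, so their own levels are uncertain.

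Among the 5 nucleotide sugar carriers, SLC35A2, which brings galactose units into the Golgi apparatus, stood at 37.5, 16.6 and 15.2 FPKM. It was 2.18-fold lower in the erlotinib-resistant and 2.38-fold lower in dual-resistant cells than in vehicle, and just within the limit in both at equal sums (log2 -0.96 and -0.99). SLC35A3, a carrier of acetylglucosamine units, stood at 12.4, 23.3 and 13.1 FPKM, highest in the erlotinib-resistant library and within the limit as deposited (log2 0.86). SLC35A1, the carrier of sialic acid units, stood at 14.8, 11.2 and 13.0 FPKM, SLC35A4 at 44.3, 28.7 and 35.9, and SLC35A5 at 12.3, 15.5 and 11.3.

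Of the 4 carriers of osmolytes and related solutes, SLC6A8, the creatine carrier, stood at 37.4, 16.2 and 9.23 FPKM. It was lower in both resistant libraries than in vehicle, by 2.23-fold and 3.75-fold, the first of them just within the limit (log2 -0.99) at equal sums. SLC6A6, the taurine carrier, was within the limit at 7.14, 9.09 and 12.2 FPKM, as were SLC5A3, the inositol carrier, at 4.43, 5.88 and 5.47, and SLC17A5, which exports sialic acid from lysosomes, at 10.2, 7.17 and 9.54. SLC5A3 lies wholly within the span of MRPS6. SLC35A2 and SLC6A8 were the only members of these 2 groups past the limit in a comparison as deposited.

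Among carriers of vitamins, nucleosides and choline, SLC43A3, a purine base carrier, and SLC29A4, a carrier of monoamines, were lowest in the erlotinib-resistant library. SLC43A3 (Entrez ID 29015, at 57174427 to 57195053 of chromosome 11) stood at 42.8, 15.8 and 51.5 FPKM, 2.62-fold below vehicle and 3.13-fold below the dual-resistant library. SLC29A4 stood at 3.65, 1.07 and 6.996 FPKM, and the erlotinib-resistant library was 2.25-fold below vehicle and 3.86-fold below the dual-resistant library. Only the dual-resistant library was above 5 FPKM, so SLC29A4 is high there by the way it was chosen. The nucleoside carriers SLC29A1 and SLC29A2 stood at 10.5, 17.6 and 19.8 FPKM and at 24.0, 25.4 and 14.3. SLC29A2 was above SLC29A1 in the vehicle and erlotinib-resistant libraries and below it in the dual-resistant library, with neither past the limit as deposited. At equal sums SLC29A1 passed it against vehicle in dual-resistant cells (1.11).

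Choline carriers of the SLC44 family differed in opposite ways. SLC44A3 stood at 5.31, 6.10 and 21.6 FPKM, 3.18-fold higher in the dual-resistant than in the erlotinib-resistant library. SLC44A1, the best known choline carrier of the family, stood at 38.9, 47.1 and 22.2 FPKM, 2.07-fold lower in that comparison but within the limit (log2 -0.96) at equal sums, and SLC44A5 at 18.8, 12.0 and 7.22, 2.40-fold lower in dual-resistant cells than in vehicle. SLC44A2 stood at 30.4, 30.2 and 21.7 FPKM. The family's sum was 93.4, 95.4 and 72.7 FPKM. The vitamin carriers SLC19A1, SLC19A2, SLC23A2, SLC46A1 and SLC5A6 lay between 5.04 and 18.6 FPKM and passed the limit in no comparison as deposited, nor did SLC29A3. SLC23A2 passed it at equal sums in dual-resistant cells against vehicle (1.13), and SLC19A1 overlaps COL18A1, which stood at 22.7, 25.3 and 97.9 FPKM. Of the 14, none was higher and 2 lower in the erlotinib-resistant library against vehicle, 3 were higher and 1 lower in dual-resistant against erlotinib-resistant cells, and 1 higher and 1 lower in the dual-resistant library against vehicle.

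In the remaining group, SLC22A3, SLC22A18, SLC22A31 and SLC33A1 passed the limit in some comparison, of which SLC22A3 and SLC22A31 reached 5 FPKM in 1 library alone. SLC22A18 (now SLC67A1), a putative organic cation carrier (Entrez ID 5002, at 2920951 to 2946476 of chromosome 11), stood at 52.1, 44.2 and 9.46 FPKM, 4.32-fold lower in the dual-resistant than in the erlotinib-resistant library. SLC22A18AS, which overlaps it, stood at 8.13, 10.2 and 1.02 FPKM, and without known strandedness the reads of the pair cannot be told apart. SLC22A3, the organic cation carrier OCT3, stood at 1.81, 2.76 and 12.2 FPKM, 3.53-fold higher in that comparison. SLC22A31 stood at 4.84, 5.09 and 0.990 FPKM, 3.06-fold lower.

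SLC33A1, which brings acetyl-CoA into the endoplasmic reticulum, stood at 24.5, 29.3 and 12.0 FPKM and was 2.33-fold lower in the dual-resistant than in the erlotinib-resistant library. The carnitine carrier SLC22A5, the fatty acid carriers SLC27A2, SLC27A4 and SLC27A5 and the bile acid carrier relatives SLC10A3 and SLC10A7 lay between 3.32 and 28.7 FPKM, within the limit in every comparison. Of the 10, none passed it in the erlotinib-resistant library against vehicle. In the dual-resistant library 1 was higher and 3 lower than in the erlotinib-resistant library (median -0.52), and 1 higher and 2 lower than in vehicle (median -0.37). At equal sums these medians were -0.44 and -0.13.

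**Figure D5:**
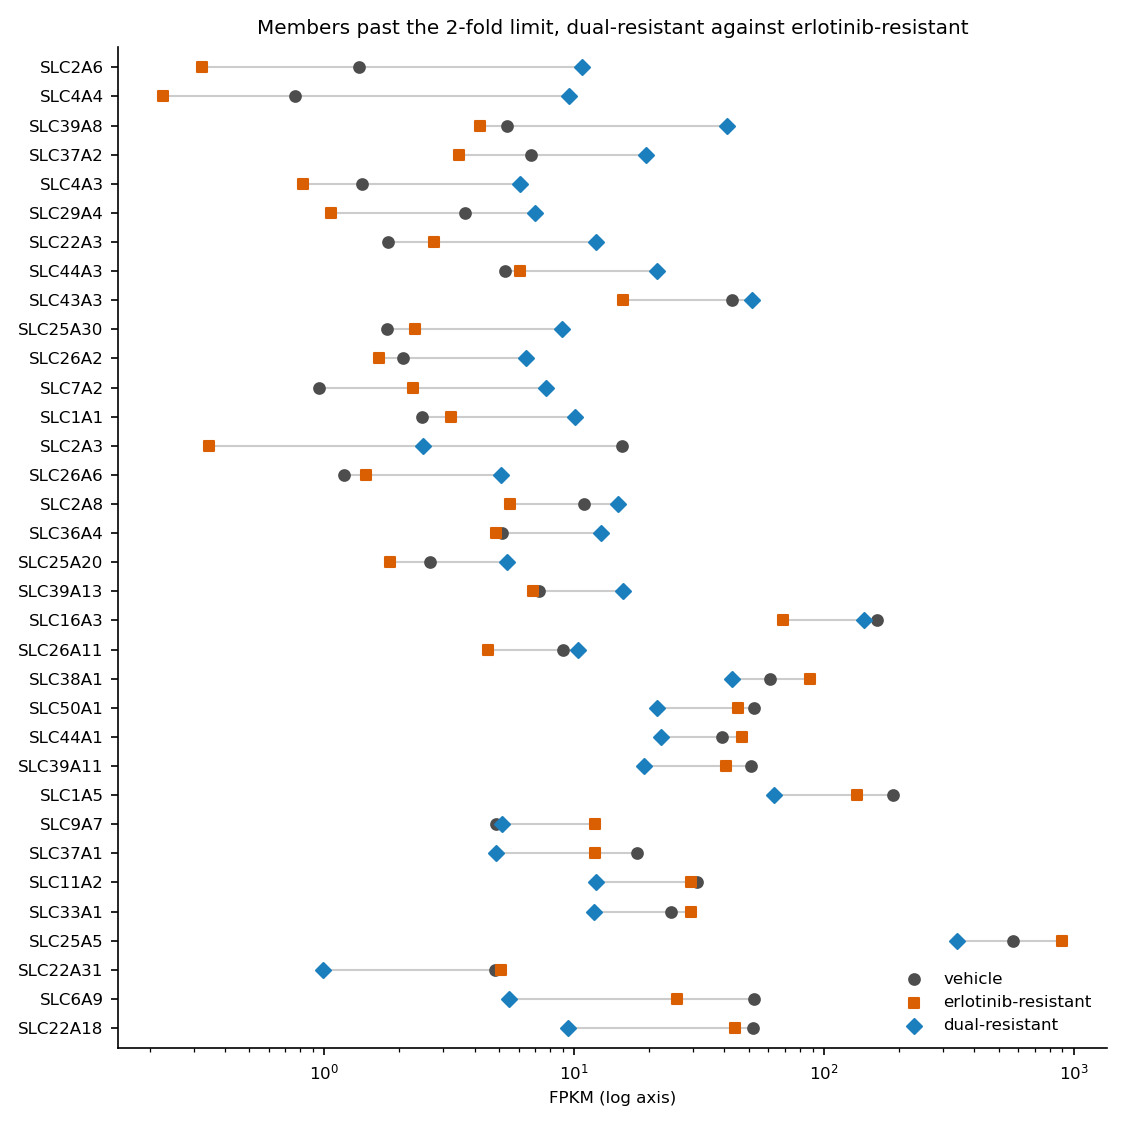
Level in FPKM (horizontal, log axis) in the vehicle (circle), erlotinib-resistant (square) and dual-resistant (diamond) libraries of 21 of the 22 members higher and all 13 members lower in the dual-resistant than in the erlotinib-resistant library, ordered by the log2 difference. The squares of the higher members shown lie below 10 FPKM except for SLC43A3 at 15.8 and SLC16A3 at 68.4, while 12 of the 13 lower members have squares above 10 FPKM.

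Of 36 partners and regulators of solute carriers, 33 were in the table and 26 reached 1 FPKM. In the erlotinib-resistant library against vehicle 1 was higher and 4 lower, in dual-resistant against erlotinib-resistant cells 4 were higher and 3 lower, and in the dual-resistant library against vehicle 4 were higher and 3 lower. Of all genes at 1 FPKM or more, 3.81% were higher and 6.03% lower in the first comparison, 10.1% and 7.22% in the second, and 11% and 10.4% in the last. SGK1, a kinase that activates several sodium-coupled carriers, stood at 181, 23.0 and 37.4 FPKM, lower in both resistant libraries than in vehicle. ATP1B1, a subunit of the sodium pump that drives such carriers, stood at 306, 146 and 61.8 FPKM, lowest in the dual-resistant library. STK39, a kinase of the chloride cotransporters, stood at 19.0, 50.1 and 9.49 FPKM, with the erlotinib-resistant library highest. GGT1, which breaks down extracellular glutathione to supply amino acids, stood at 8.09, 4.50 and 27.4 FPKM.

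The ubiquitin ligases NEDD4 and NEDD4L, which remove carriers from the surface, stood at 7.82, 11.6 and 20.2 FPKM and at 10.3, 14.3 and 23.4, above the limit in the dual-resistant library against vehicle. BRP44L and BRP44 (now MPC1 and MPC2), which together form the mitochondrial pyruvate carrier, stood at 33.4, 17.1 and 7.99 FPKM and at 14.9, 12.3 and 26.3. In dual-resistant against erlotinib-resistant cells these partners passed the limit in opposite directions as deposited, with log2 differences of -1.01 and 1.04. Both lie at the edge of the limit, and equal-sum values were not computed for partners. Scaling to equal sums raised the median of all genes by 0.07 in this comparison, so the call of BRP44L may depend on the scaling.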

How the data were processed

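RNA was sequenced from 3 populations of HCC827, 1 library each. The authors deposited 1 column per library, read here as FPKM from the tools named and the values, since no header gives the unit; per the submitters' processing notes the tools were TopHat 1.3 and Cufflinks 1.3, on GRCh37. The sources used here do not state gene set, settings or strandedness. Read depth is known only approximately. Rows sharing a symbol were summed, which touched SLC25A6 alone, and missing cells stayed missing. Start positions were read as counting from 0 and are printed from 1. Members were SLC genes at 5 FPKM or more in at least 1 library, placed in 10 groups by substrate. Differences are of log2(FPKM + 1), called by size at 1 or more, with no test because each group has 1 library. Folds are ratios of FPKM + 1. Named genes were the 10 highest and 10 lowest members of each comparison, the 3 highest by mean and the 3 most different of each group, a fixed list, the 3 genes on each side of the 5 FPKM limit, and up to 8 partners past the limit. Other members and partners were named with their values in view. A few genes are counted but not reported by name here. Members and lists were chosen with earlier results of these data known. Other pseudocounts, scalings, level filters and row handling were tried, and the equal-sum values of every called member were added after seeing the data. The difference and call functions were tested on simulated data. The worth of 1 fragment is percentile 1 of FPKM times length over single-exon genes of 1 to 5 kb (GENCODE symbols). Current symbols and promoters are from RefSeq, GRCh38.p14. Python 3.11.15, pandas 2.3.3 and numpy 2.4.6 were used.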

Additional observations from a re-analysis of the deposited data

How the results depend on the processing

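Counts and medians of the members were recomputed under 10 other settings. In the erlotinib-resistant library against vehicle, higher members numbered 2 and lower members 5 with a pseudocount of 5 FPKM. At equal sums 5 were lower and the median was 0.15, and with members at 1 FPKM or with no filter 16 were lower. Of all genes at 1 FPKM or more, 6.03% were lower in this comparison. In the dual-resistant against the erlotinib-resistant library, 9 were higher and 5 lower with a pseudocount of 5 FPKM, 8 were lower at equal sums, and 13 and 12 were higher with members at 10 FPKM or at a mean of 5 FPKM. In the dual-resistant library against vehicle, 11 were higher with a pseudocount of 5 FPKM, the median was 0.29 at equal sums, 25 were lower with members at 1 FPKM or with no filter, 13 were higher and the median was -0.079 with members at 10 FPKM, and 12 were higher with a mean of 5 FPKM. Of all genes at 1 FPKM or more, 10.4% were lower there. The other 72 of these 90 recomputed values stayed within 1.5 times the count or 0.1 of the median. Of these, 9 could not move, since their setting left out members listed at 0 and no member was. Another 9 came from row handling, which touched SLC25A6 alone. Of 875 recomputed differences of named members, 35 came within the limit, 13 passed it newly and none of the called ones changed sign. Row handling gave 175 of the 875. Scaling to equal sums ended 3, 5 and 4 calls of members in the 3 comparisons and added 2, 0 and 7. Of 150 recomputed medians of substrate groups, 24 moved by 0.1 or more, 19 of them at equal sums, and some changed sign. The cause was not tested beyond the construction of each setting. No paired analysis was possible because each group has 1 library, and no replicate could be left out.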
